A study of Mus musculus with 12 samples.

Results

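Complement, coagulation and their inhibitors are plasma protein systems that the liver largely supplies, and the transcripts of 39 of these genes were followed across 4 liver genotypes. The genes were taken from a fixed list of symbols, and each was read from its brightest probe set annotated to that gene alone. Of the 39 genes, 35 were measured in liver (13 complement components, 14 coagulation and fibrinolysis factors and 8 inhibitors), out of 14855 genes tested. No probe set was named here for C3, Cfd or Cpb2, and C4b shared its probe set with C4a, so these 4 were not counted among the measured members. The livers came from adult C57BL/6J mice on a high-fat diet (HFD) for 12 weeks according to the labels, whereas the results section of the study describes normal chow for its arrays. There were 2 arrays each of WT mice, of Dscr-1 null mice (Dscr-1-KO), of ApoE null mice (ApoE-KO) and of mice lacking both genes (Dscr-1;ApoE-DKO, here double null). Dscr-1, now named Rcan1, encodes an inhibitor of calcineurin and NFAT signaling, and ApoE encodes the lipoprotein ligand by which the liver clears remnant particles. A second set of 4 arrays held endothelial cells from the aorta, 2 arrays from ApoE null and 2 from double null animals. Nothing in the labels says whether the arrays of a genotype came from separate animals, so that the p-values measure the spread between arrays.

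Complement is a cascade of serum proteases that tags particles for uptake and punches pores into membranes. It is started by antibody and C1q (classical route), by sugar-binding lectins (lectin route) or spontaneously on surfaces (alternative route), and the routes meet at C3 before the pore components C5 to C9 assemble. Coagulation is a parallel cascade that ends with thrombin cutting fibrinogen into fibrin, and plasmin dissolves the clot. Hepatocytes make most of these factors under control of liver transcription factors such as HNF1, HNF4 and C/EBP, and several of them, fibrinogen above all, are acute phase proteins induced by interleukin 6 through STAT3. Properdin is an exception, being made chiefly by leukocytes.

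The liver values were MAS5 signals, a linear measure of probe set brightness that the authors scaled to a common array mean. Apoe read 20045.3 and 19962.9 on the WT arrays and 21510.3 and 19937.4 on the Dscr-1 null arrays, against 305 and 177.1 on the ApoE null arrays and 83.7 and 79.8 on the double null arrays, as the labels state. Loss of Dscr-1 could not be checked in this way, as the Rcan1 probe set read 255.2 and 353.1 on the Dscr-1 null arrays and 491.5 and 209.5 on the double null arrays, against 210 and 133.7 in WT. Hprt read 819.7 and 65.9 on the Dscr-1 null arrays, 46.9 and 54.8 on the WT arrays and 884.2 to 1018.7 on the others, so that the second Dscr-1 null array resembled WT at this gene. The first ApoE null array stood apart, with a mean correlation of 0.835 with the other liver arrays (0.873 to 0.883 for those) and a median signal of 44.7 (32.2 to 37.6). It was the lowest of the 8 arrays for 22 of the 35 members, with a median member deviation of -0.25 on the log2 scale, while 16 measured hepatocyte markers were at a median of 0.33 there. The second ApoE null array was the highest for 12 members, with a median deviation of 0.17. The 3′ to 5′ signal ratio, a measure of RNA integrity that is higher where RNA is degraded, was 2.93 for Gapdh and 6.83 for b-Actin on the first ApoE null array, against 1.91 and 4.01 on the second. It was 2.72 and 3.08 (Gapdh) and 5.96 and 7.84 (b-Actin) on the double null arrays and lay between 1.97 and 2.81 and between 3.15 and 5.5 on the WT and Dscr-1 null arrays. Its part in the member values was not tested. Within ApoE null livers the brighter array therefore exceeded the dimmer by a median ratio of 1.48 over the 35 members, against 1.13 in WT, 1.15 in Dscr-1 nulls and 1.14 in double nulls.

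Promoters are shown for the fibrinogen chains, which lie together on chromosome 3, and for properdin, which gave the largest difference among the members. The 250 bases before each start site are from RefSeq (GRCm38.p6), written 5′ to 3′ on the strand of the gene. Capitals mark matches to the motifs searched on both strands, which were GTTAAT (the core of an HNF1 site), CAAAGTCCA (HNF4), TTNNGNAAT (C/EBP), TTCNNNGAA and TTCNNGGAA (STAT3) and, for the basal promoter element, TATAAA. The STAT3 patterns overlap, and a palindromic match was marked once.
Fga (chr3:83025903-83026152, plus strand): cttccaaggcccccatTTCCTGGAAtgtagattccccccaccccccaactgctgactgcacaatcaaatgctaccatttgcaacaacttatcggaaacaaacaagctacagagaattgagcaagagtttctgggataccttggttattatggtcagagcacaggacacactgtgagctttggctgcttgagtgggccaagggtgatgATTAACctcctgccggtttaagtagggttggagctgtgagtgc
Fgb (chr3:83049864-83050113, minus strand): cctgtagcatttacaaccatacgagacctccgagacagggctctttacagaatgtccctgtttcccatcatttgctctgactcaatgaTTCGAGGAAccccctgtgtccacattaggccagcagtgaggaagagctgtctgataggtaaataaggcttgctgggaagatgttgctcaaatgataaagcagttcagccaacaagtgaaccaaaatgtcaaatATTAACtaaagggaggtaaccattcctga
Fgg (chr3:83007474-83007723, plus strand): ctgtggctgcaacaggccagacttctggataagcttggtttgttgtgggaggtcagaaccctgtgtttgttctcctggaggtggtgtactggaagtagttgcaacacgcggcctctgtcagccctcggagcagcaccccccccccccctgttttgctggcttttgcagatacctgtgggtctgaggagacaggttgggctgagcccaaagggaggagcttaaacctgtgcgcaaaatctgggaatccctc
Cfp (chrX:20931556-20931805, minus strand): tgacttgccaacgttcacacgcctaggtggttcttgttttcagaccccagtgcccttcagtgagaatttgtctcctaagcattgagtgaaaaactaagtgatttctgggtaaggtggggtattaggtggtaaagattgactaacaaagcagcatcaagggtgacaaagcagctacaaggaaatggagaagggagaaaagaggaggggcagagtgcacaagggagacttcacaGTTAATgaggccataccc
Fga and Fgb each held an HNF1 motif close to the start (38 to 43 and 24 to 29 bases upstream) and a STAT3 motif farther out (226 to 234 and 154 to 162 bases upstream), Fgg held none of the letters searched, and Cfp held an HNF1 motif 13 to 18 bases upstream. Promoters were found for 27 of the measured members (28 promoters, of 32851 in all). GTTAAT stood in 8 of the 28 (28.6%, against 6.43% of all promoters), those of C4bp, C8a, C8b, Cfp, F13b, Fga, Fgb and Hc. TTCNNNGAA stood in 6 (21.4% against 7.02%) and TTCNNGGAA in 5 (17.9% against 4.06%), among them F9, Fga, Fgb, Masp2 and Pros1 for both. TTNNGNAAT stood in 4 (14.3% against 10.2%), TATAAA in 2 (7.14% against 12.4%) and CAAAGTCCA in 0 (against 0.384%). These matches are descriptions of letters, not of bound sites.

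**Figure D1:**
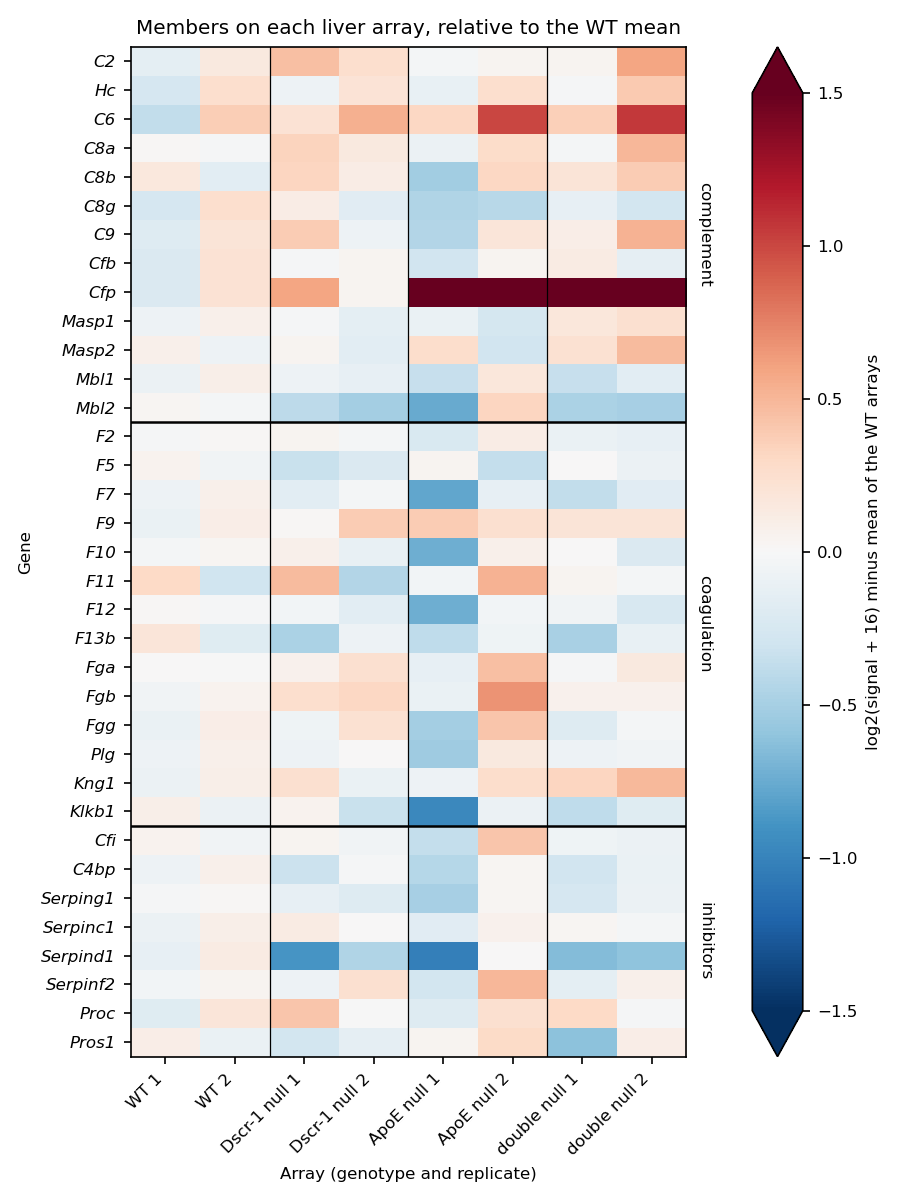
Each of the 35 members (rows, grouped by class) on each of the 8 liver arrays (columns), coloured by log2(signal + 16) minus the mean of the WT arrays. The colour scale ends at 1.5, which Cfp passes on the 4 arrays lacking ApoE, and the first ApoE null array is the lowest for 22 members.

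For most members the genotypes differed little beside the spread between arrays. Their probe sets were bright, 31 of the 35 lying above the 90th percentile of the genes tested, which is no comparison of transcript levels. Cfp (properdin) had the largest differences, up to 2.15 on the log2 scale. C6 (up to 0.71) and Serpind1 (down to -0.67) came next. Comparing the 4 arrays that lack ApoE with the 4 that have it, the median log2 difference of the members was -0.02, against 0.01 over all genes tested. The median was 0.01 for complement, -0.10 for coagulation and -0.04 for the inhibitors. Comparing the 4 arrays that lack Dscr-1 with the other 4, the member median was 0.05, with 0.15 for complement, 0.03 for coagulation and -0.05 for the inhibitors. In bulk liver, fewer cells of a type and less RNA per cell cannot be told apart.

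Counting signs, 18 of 35 members were above 0 in Dscr-1 null against WT (51.4%, against 48.8% of all genes), 14 in ApoE null against WT (40% against 49.6%) and 15 in double null against WT (42.9% against 50.8%). Above 0 were 14 in ApoE-lacking against ApoE-intact livers (40% against 50.5%), 23 in Dscr-1-lacking against Dscr-1-intact livers (65.7% against 49.6%), of which 11 were complement components, and 19 for the interaction (54.3% against 51.6%). In limma's fit across all genes, 0 of 35 members passed an adjusted p of 0.05 in any liver comparison. The background was close to 0 as well: 1 gene (0.00673% of those tested) was called higher in Dscr-1 null against WT, 1 higher and 1 lower (0.00673% each) in ApoE null against WT, as many in double null against WT, 1 lower (0.00673%) in ApoE-lacking against ApoE-intact livers, and 0 in the remaining liver comparisons. At an unadjusted p under 0.05, Cfp alone passed, in 3 comparisons and always higher. That is 2.86% of the members, against 3.5% of all genes in ApoE null against WT, 3.51% in double null against WT and 3.97% in ApoE-lacking against ApoE-intact livers, so the count is near the background and is not a result about the members. No member was lower at that level in these 3 comparisons (2.24%, 1.8% and 1.76% of all genes), and 0 members passed it in either direction in Dscr-1 null against WT (1.94% higher and 1.9% lower), double null against ApoE null (2.85% and 2.48%) or Dscr-1-lacking against Dscr-1-intact livers (2.24% and 2.38%).

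The intervals say how large a difference could have been missed. For ApoE-lacking against ApoE-intact livers the 95% interval lay within a 2-fold difference either way for 32 of 35 members (91.4%), against 44.9% of all genes, and reached beyond it for C6, Cfp and Klkb1. For Dscr-1-lacking against Dscr-1-intact livers it was again 32 of 35 (91.4%), against 46.3%, with Cfp, Mbl2 and Serpind1 reaching beyond. Without the first ApoE null array the counts were 32 and 29, and without the second Dscr-1 null array 27 and 25. The comparison genes were not matched for brightness. The residual SD within genotypes had a median of 0.26 (log2) over the members, from 0.09 for Masp1 to 0.53 for Cfp, against 0.45 over all genes tested. With 2 arrays against 2 the intervals were wider, and those of 16 members for Dscr-1 null against WT (14% of all genes), 13 for ApoE null against WT (12.1%), 10 for double null against WT (11.5%) and 12 for double null against ApoE null (12.5%) lay within 2-fold.

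**Figure D2:**
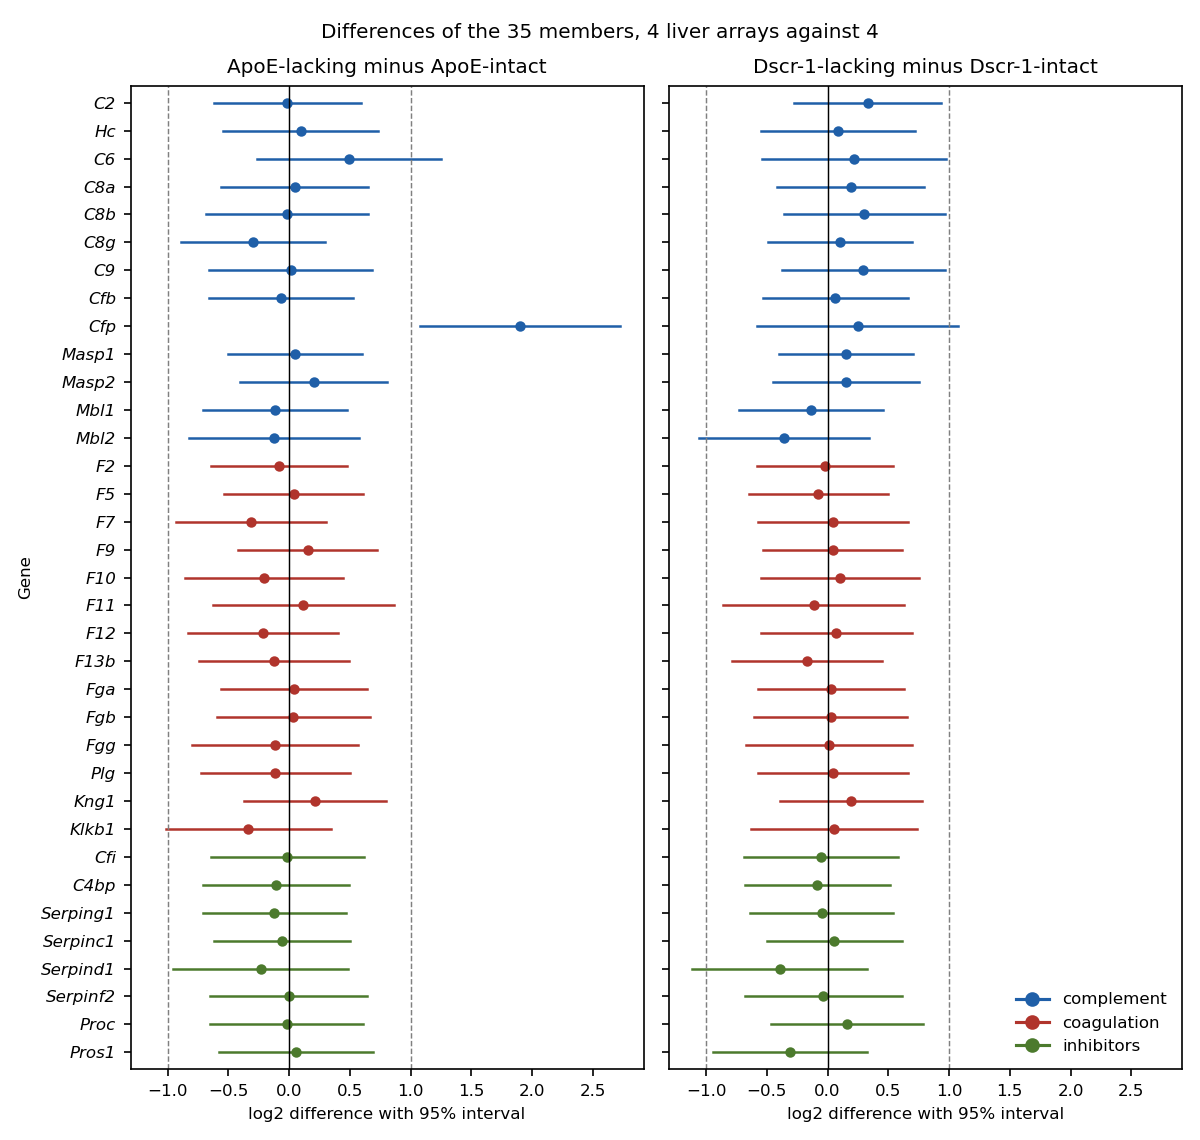
Log2 differences (points) with 95% intervals (lines) of the 35 members between the 4 liver arrays lacking ApoE and the 4 with it (left) and between the 4 lacking Dscr-1 and the 4 with it (right). Dashed lines mark a 2-fold difference either way, and Cfp at 1.90 is the only member whose interval leaves 0 out.

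The lectin route was read from 2 recognition proteins and 2 proteases. Mbl2, mannose-binding lectin C, read 4036.1 and 3883.3 in WT, 3008.1 and 2782.5 in Dscr-1 null, 2341.6 and 4941.6 in ApoE null livers and 2848.7 and 2807.9 in double nulls. Both genotypes without Dscr-1 lay below WT with no overlap, while the ApoE null arrays spanned the whole range. The log2 difference of Dscr-1 null from WT was -0.45 ± 0.43 (SE, n = 2 arrays each), and that of Dscr-1-lacking from Dscr-1-intact livers was -0.36, with a 95% interval from -1.06 to 0.34 (limma's adjusted p = 0.989). Without the first ApoE null array the latter was -0.63, and without the second -0.09. Mbl1, mannose-binding lectin A, ranged from 2221.5 to 3186.6 over the 8 arrays, both extremes falling on arrays that lack ApoE. Masp1, a protease bound to these lectins, had the smallest spread of all members, with 1828.6 and 2019.9 in WT, 1897.7 and 1740.1 in Dscr-1 null, 1790.5 and 1597.2 in ApoE null livers and 2158.8 and 2269.3 in double nulls. The double null arrays were the highest pair, above both ApoE null arrays, with a log2 difference between these genotypes of 0.39 and an interaction term of 0.47 (limma's adjusted p = 0.939 and 1). Other Masp1 probe sets, all dimmer, gave differences of 0.04, 0.47, 1.51 and -0.70 between these genotypes. Their interaction terms were 0.20, 0.77, 1.61 and -1.88 in the same order. The last of them read 3.4 to 44.1, so that size and direction for Masp1 depended on the probe set. Masp2, which cuts C4 and C2, read 729.1 and 867 in double null livers and 504.4 to 744.3 elsewhere. A dimmer Masp2 probe set read 499.1 and 531.2 in double null livers, below 584.2 and 579.5 in WT. The log2 difference of double null from WT was 0.35 on the first and -0.17 on the dimmer probe set, so that its direction depended on the probe set.

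C2 and factor B are the proteases of the C3 convertases. C2 read 500.5 and 616.2 in WT, 766.1 and 664.2 in Dscr-1 null, 543 and 572.8 in ApoE null livers and 571.6 and 844.6 in double nulls. On this probe set the Dscr-1 null arrays exceeded WT without overlap, whereas the double null arrays spread across the range. Both other C2 probe sets were dimmer, and on them the Dscr-1 null arrays overlapped with WT. On 1 of these the double null arrays (641.2 and 809.8) exceeded WT (467.8 and 593.4) and ApoE null (386.5 and 546.9). The C2 difference of 0.33 ± 0.26 (log2) between Dscr-1-lacking and Dscr-1-intact livers was the largest positive one among the members in that comparison. It had an adjusted p of 0.985 in limma, and the other probe sets differed by 0.23 and 0.40. Cfb lay between 2484.9 and 3505.2 on all arrays. The probe set shared by C4a and C4b, which is no measure of C4b alone, read 5814.7 and 8091.7 in WT and 7699.1 and 8631.8 in double null livers, with 6272.1 to 8387.1 on the other arrays.

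Cfp, properdin, stabilises the convertase of the alternative route and stood apart from every other member. Its probe set was the dimmest of the members, at the 64.6th percentile of the genes tested, and MAS5 is noisy for dim probe sets. It read 40.9 and 61.4 in WT, 84 and 52.2 in Dscr-1 null, 318.7 and 185.2 in ApoE null livers and 416.1 and 184.1 in double nulls. All 4 arrays lacking ApoE exceeded all 4 with it, and the replicates of each ApoE-lacking genotype differed by 1.72-fold or more. Cfp was 1.97 higher on the log2 scale in ApoE null than in WT livers (95% interval 0.80 to 3.13), 2.15 higher in double null than in WT (0.98 to 3.32) and 1.90 ± 0.36 higher in ApoE-lacking than in ApoE-intact livers (1.07 to 2.73). The unadjusted p-values were 0.00472, 0.0029 and 0.000753 in limma, and adjusted over all probe sets they were 0.579, 0.671 and 0.535, so that no comparison passed the threshold. The size depended on the offset added to the signal. With a smaller offset of 1 the ApoE-lacking difference was 2.15 (limma's adjusted p = 0.438), and with a larger offset of 64 it was 1.41 (0.00919). With limma's variance trend and robust option the 3 comparisons had adjusted p-values of 0.00322, 0.000464 and 2.95e-06. Without the first ApoE null array the ApoE-lacking difference was 1.72 (adjusted p = 0.781). The comparison of 4 arrays with 4 left 1 of 35 members without overlap on the high side (2.86%), against 2.23% of all genes, and 0 on the low side (1.64%). Another Cfp probe set, too dim to be kept, read 2.9 to 57.9 and differed by 0.14.

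The C1q chains, which start the classical route and are made by macrophages, were higher on the same arrays as Cfp. C1qa read 319.6 and 434.1 in WT, 535.6 and 353.2 in Dscr-1 null, 737.2 and 681.8 in ApoE null livers and 1327.7 and 788.9 in double nulls. The ApoE-lacking arrays exceeded the others without overlap, by 1.05 ± 0.30 for C1qa, 1.21 ± 0.34 for C1qb and 1.04 ± 0.29 for C1qc (limma's adjusted p = 0.622, 0.619 and 0.622). The markers of macrophages and Kupffer cells, the resident macrophages of liver, were also higher in value. Of 14 measured, 11 were higher in ApoE-lacking livers with a median of 0.92. The others, Adgre1, Timd4 and Cd163, differed by -0.06, -0.05 and -1.12. At an unadjusted p under 0.05, 9 markers were higher (against 3.97% of all genes) and 1 marker, Cd163, was lower (against 1.76%), with 0 past the adjusted threshold. Their summed signal was 5769.1 to 7709.5 on the ApoE-intact arrays and 9644.1 to 22487.7 on the ApoE-lacking arrays, and no marker was at 0. Cfp, C1qb and Lyz2, the lysozyme of macrophages, were each higher on the first than on the second array of both ApoE-lacking genotypes, in the order of the summed markers. Lyz2 is itself among the summed markers, so that its order is partly that of the sum. Of 7 measured neutrophil markers, 5 were higher in ApoE-lacking livers and 2 lower (Ngp at -0.19 and Ltf at -0.25), with a median of 0.49. Of these, 1 (S100a9) was higher at an unadjusted p under 0.05 (against 3.97% of all genes) and 0 passed the adjusted threshold. Their summed signal was 213.7 to 327.7 on the ApoE-intact and 336.6 to 485.9 on the ApoE-lacking arrays. This sum was higher on the first array of both ApoE-lacking genotypes, and no marker was at 0. The median deviation of these markers did not follow that order. It was 0.27 and 0.01 on the ApoE null arrays and 0.15 and 0.25 on the double null arrays. It was 0.22 on the first Dscr-1 null array and -0.42 to -0.14 on the other ApoE-intact arrays. The part of macrophage and neutrophil content in the Cfp and C1q values was not tested.

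**Figure D3:**
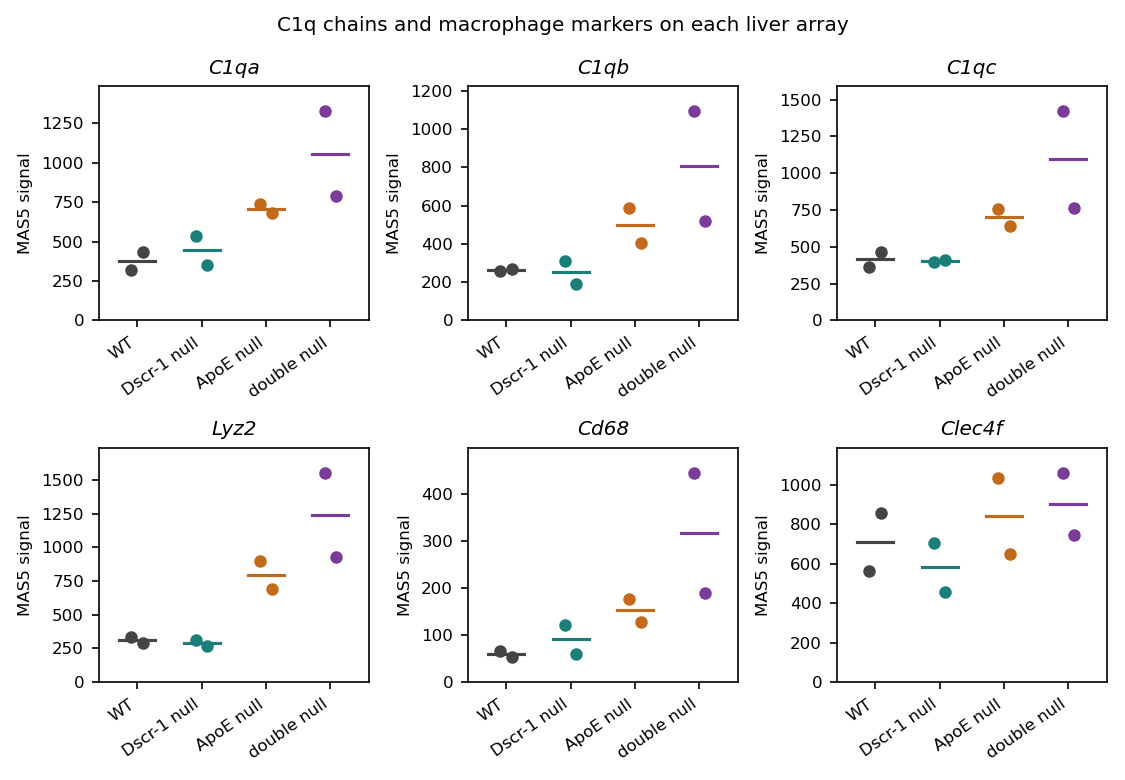
MAS5 signal (vertical axes, from 0) of the 3 C1q chains and of 3 macrophage markers on the 2 arrays of each liver genotype (points), with the mean (bar). C1qa, C1qb, C1qc, Lyz2 and Cd68 are higher on all 4 arrays lacking ApoE, while Clec4f, a Kupffer cell lectin, overlaps between the groups.

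Among the pore components, C6 had the widest differences. It read 733.5 and 1234.1 in WT, 1108.2 and 1389.1 in Dscr-1 null, 1180.2 and 1915.9 in ApoE null livers and 1223.8 and 1999.2 in double nulls. Each genotype overlapped with at least one other, and the WT arrays themselves differed by 1.68-fold. C6 was 0.65 higher in ApoE nulls and 0.71 higher in double nulls than in WT on the log2 scale, and 0.49 higher in ApoE-lacking livers, with an interval from -0.26 to 1.25 (limma's adjusted p = 0.891). Without the second ApoE null array these differences were 0.30 for ApoE null against WT and 0.32 for ApoE-lacking livers. Hc, the gene of C5, read 5970.9 and 8491.7 in WT, 6743.4 and 8237.2 in Dscr-1 null, 6598.9 and 8481 in ApoE null livers and 7008.6 and 9316.8 in double nulls. All 4 pairs overlapped, and the ApoE-lacking difference was 0.09 ± 0.27. C9, which closes the ring of the pore, read 13151.9 and 17123.1, 19577.3 and 14250.9, 11099.7 and 16972.6, and 16029.5 and 21483.9 in the same order of genotypes. Its difference of 0.43 between double null and ApoE null livers was the largest positive one of that comparison, and it was 0.13 without the first ApoE null array and 0.74 without the second. The C8 chains C8a, C8b and C8g differed by 0.05, -0.02 and -0.30 between ApoE-lacking and ApoE-intact livers.

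**Figure D4:**
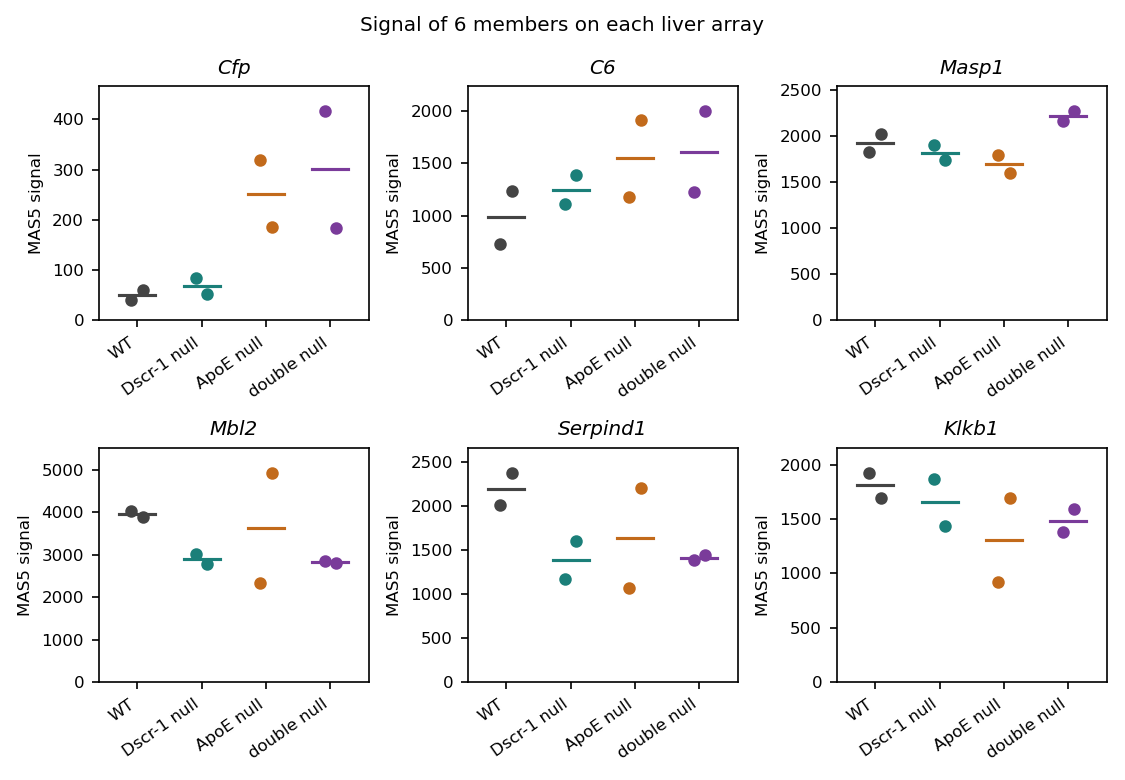
MAS5 signal (vertical axes, from 0) of Cfp, C6, Masp1, Mbl2, Serpind1 and Klkb1 on the 2 arrays of each liver genotype (points), with the mean (bar). Cfp separates the genotypes with and without ApoE, and the ApoE null pair is split for Mbl2, Serpind1 and Klkb1.

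Differences among the coagulation factors were small beside their intervals. Prothrombin (F2) read 8611.5 and 8818.4 in WT, 8947.1 and 8559.7 in Dscr-1 null, 7445.2 and 9395.8 in ApoE null livers and 8143.1 and 8030.5 in double nulls. Its ApoE-lacking difference of -0.09 had an interval from -0.65 to 0.47, and its Dscr-1-lacking difference of -0.02 one from -0.58 to 0.54. F7, the partner of tissue factor that opens the extrinsic route, read 967.9 and 1077.6 in WT, 916.5 and 998.5 in Dscr-1 null, 586.1 and 932.8 in ApoE null livers and 788.8 and 905.4 in double nulls. The 4 ApoE-lacking arrays reached up to 932.8 and the lowest ApoE-intact array was at 916.5, so that the groups overlapped at 1 array, with a difference of -0.32 ± 0.27 (limma's adjusted p = 0.928), which was -0.15 without the first ApoE null array and -0.48 without the second. F10, which cuts prothrombin, and F5, its cofactor, differed by -0.21 and 0.04. F9 and F11, the proteases of the intrinsic route, differed by 0.15 and 0.12, and F13b, the carrier subunit of the fibrin cross-linking enzyme, by -0.12.

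The contact system, which starts the intrinsic route and releases bradykinin, held the member with the largest negative difference of ApoE null from WT. Klkb1, plasma prekallikrein, read 1928.7 and 1695.3 in WT, 1873.2 and 1434.7 in Dscr-1 null, 916.1 and 1697.2 in ApoE null livers and 1381.3 and 1592.3 in double nulls. One ApoE null array lay far below the rest and the other was at the WT level. The difference of ApoE null from WT was -0.53, and it was -0.09 without the first ApoE null array and -0.97 without the second. The ApoE-lacking difference was -0.34 with an interval from -1.02 to 0.34 (limma's adjusted p = 0.93). It was -0.12 without the first ApoE null array and -0.56 without the second. F12 differed by -0.21 and Kng1, the kininogen from which bradykinin is cut, by 0.21. A second Kng1 probe set differed by -0.11, so that the direction for Kng1 depended on the probe set.

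Fibrinogen is built from 3 chains encoded side by side, and each was split between the ApoE null arrays. Fga read 13983.2 and 13887.5 in WT, 14623.5 and 16478.2 in Dscr-1 null, 12832.5 and 19058.3 in ApoE null livers and 13805.4 and 15434.2 in double nulls. Fgb read 8706.2 and 9361.9, 10719.4 and 11179.2, 8444.9 and 14389.7, and 9422.6 and 9410 in the same order. Fgg read 13261.7 and 15267.1, 13609.7 and 16727.7, 9984.7 and 19017.7, and 12488.8 and 13971.9. All 3 chains were lowest on the first and highest on the second ApoE null array, so that the mean of that genotype stood between extremes. This split was not particular to fibrinogen, as 30 of the 35 members were lower on the first of these arrays. Between the WT arrays Fga was nearly level while Fgg rose, and between the double null arrays Fgb was nearly level while Fga and Fgg rose. The ApoE-lacking differences were 0.04 ± 0.26, 0.04 ± 0.27 and -0.12 ± 0.30, and the Dscr-1-lacking differences 0.03, 0.03 and 0.01. The interaction term of Fgb, -0.50, was the most negative of all members and rested on the second ApoE null array, as it was -0.89 without the first and -0.12 without the second. Plasminogen (Plg), the zymogen that dissolves fibrin, was also lowest on the first (11632.8) and highest on the second ApoE null array (18703.6), with 15975.6 to 17794.2 elsewhere.

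**Figure D5:**
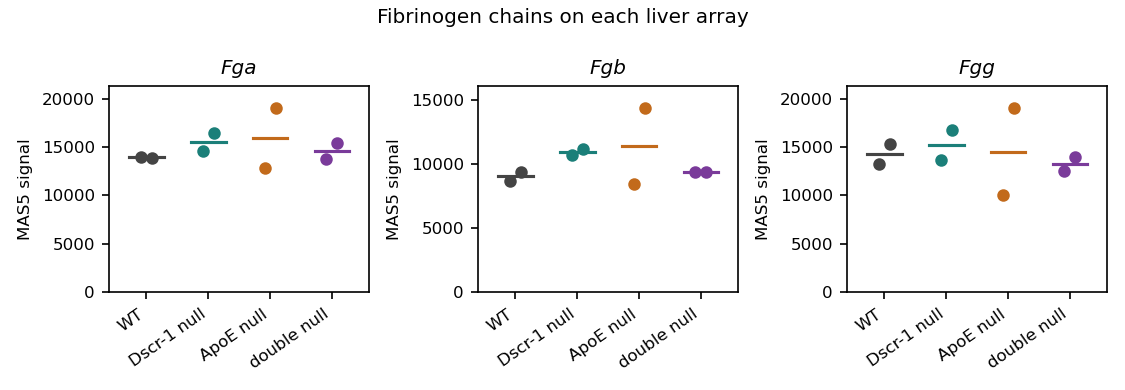
MAS5 signal (vertical axes, from 0) of the fibrinogen chains Fga, Fgb and Fgg on the 2 arrays of each liver genotype (points), with the mean (bar). The ApoE null arrays hold both the lowest and the highest value of each chain.

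Among the inhibitors, Serpind1 (heparin cofactor II, an inhibitor of thrombin) had the largest difference. It read 2007.6 and 2376.2 in WT, 1173.4 and 1599 in Dscr-1 null, 1066.2 and 2198.5 in ApoE null livers and 1382.4 and 1436.7 in double nulls. Both genotypes lacking Dscr-1 lay below WT without overlap, and the ApoE null arrays held the lowest value and one within the WT range. Serpind1 was 0.67 lower (log2 difference -0.67 ± 0.44) in Dscr-1 null livers than in WT, 0.63 lower (-0.63) in double nulls, and -0.12 in double null against ApoE null livers. The Dscr-1-lacking difference was -0.39, with an interval from -1.11 to 0.33 and an adjusted p of 0.985 in limma. It was -0.65 without the first ApoE null array, -0.13 without the second and -0.50 without the second Dscr-1 null array, none past the threshold. Serpinc1, antithrombin, read 14220.7 and 15995 in WT, 16416.6 and 15189.6 in Dscr-1 null, 13449 and 15776.8 in ApoE null livers and 15381.1 and 14733.3 in double nulls. One Dscr-1 null array lay above the WT range, 1 ApoE null array lay below it and the others inside it, and the ApoE-lacking difference was -0.06, with an interval from -0.62 to 0.50.

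C1 inhibitor (Serping1), which blocks the proteases that start the classical and contact systems, read 4707.5 and 4854.1 in WT, 4386.5 and 4163.7 in Dscr-1 null, 3384 and 4865.3 in ApoE null livers and 4005.1 and 4487.8 in double nulls. Both genotypes lacking Dscr-1 lay below WT without overlap, by -0.16 and -0.17 on the log2 scale, which is smaller than the standard error of 0.36. Protein S (Pros1), the cofactor of protein C, read 365.9 and 319.2 in WT, 280.4 and 309.2 in Dscr-1 null, 351.5 and 419.5 in ApoE null livers and 216.8 and 367.9 in double nulls. The double null arrays spread widely, and the difference of -0.42 from ApoE null livers was the largest negative one of that comparison (limma's adjusted p = 0.947). Cfi and C4bp, which take C3b and C4b apart, differed by -0.02 and -0.11 between ApoE-lacking and ApoE-intact livers, Serpinf2 (alpha-2-antiplasmin) by -0.01 and protein C (Proc) by -0.02.

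The further question was whether loss of Dscr-1 acts differently where ApoE is already missing. Between double null and ApoE null livers the member median was 0.11, with 22 of 35 members above 0 (62.9%, against 50.3% of all genes) and 0 past 1.5-fold (26.8% of all genes). The median was -0.18 without the first ApoE null array and 0.29 without the second, and it was -0.01 after quantile normalization of all arrays, so that its sign depended on single arrays and on the normalization. Without overlap, C8g, Masp1 and Kng1 were higher (8.57% of members, against 16.6% of all genes) and F9 was lower (2.86% against 15.7%). In double null against WT livers 7 members were higher without overlap (C8b, Cfp, Masp1, Masp2, F9, Fgb and Kng1, 20% against 19.6% of all genes) and 10 were lower (Mbl1, Mbl2, F2, F7, F12, Klkb1, Cfi, C4bp, Serping1 and Serpind1, 28.6% against 18.6%). For Dscr-1 null against WT these counts were 4 and 6 (11.4% and 17.1%, against 16.3% and 16.9%), and for ApoE null against WT 2 and 4 (5.71% and 11.4%, against 17.3% and 16.7%). These comparisons share the WT arrays. The counts rest on each gene's brightest probe set. In double null against WT livers, other probe sets of Masp1, Masp2 and Kng1 did not all go the same way. In the comparison of 4 arrays lacking Dscr-1 with 4 that have it, 0 members were without overlap in either direction (1.49% and 1.35% of all genes). The interaction of both losses had a member median of 0.10, from -0.50 for Fgb to 0.55 for Serpind1, and 0 members had an unadjusted p under 0.05 (2.11% higher and 2.28% lower of all genes). Without the first ApoE null array the Serpind1 interaction was 0.03, and without the second it was 1.06.

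Genes that work beside the members were read from lists fixed with them. Of 25 further complement genes 19 were measured, and 10 were higher and 9 lower in ApoE-lacking livers with a median of 0.06, the 3 C1q chains alone having an unadjusted p under 0.05. Of 25 further coagulation and fibrinolysis genes 20 were measured, with 11 higher, 9 lower and a median of 0.06. Among them Vwf, the von Willebrand factor of endothelium and platelets, and Procr, the endothelial receptor of protein C, were higher at an unadjusted p under 0.05 (1.05 and 1.3), both at signals of 118.4 or less. Of 20 acute phase and interleukin 6 response genes, 13 were higher and 7 lower in ApoE-lacking livers with a median of 0.19. At an unadjusted p under 0.05, 4 were higher (Saa3, Lcn2, Orm2 and Socs3) and 0 lower. Saa3, a serum amyloid A made outside hepatocytes as well, differed by 2.69 and Lcn2, lipocalin 2, by 2.78, while Crp, the C-reactive protein, differed by -0.17 and the fibrinogen chains as above. Saa1, a hepatocyte acute phase gene, differed between replicates by 1.75-fold or more in every genotype, with 686.5 and 6559.2 in WT and 1495 and 11724.1 in Dscr-1 null livers. Of 13 measured hepatocyte transcription factors 9 were higher and 4 lower, with a median of 0.16, and Hnf4a and Stat3 differed by -0.003 and 0.08. Crp, Saa1 and Stat3, and Clec4f among the macrophage markers, were picked after their values were seen. In each of these lists 0 genes passed an adjusted p of 0.05 in limma in any liver comparison.

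In aortic endothelial cells, whose deposited values are log2, most members were at low levels. Of the 35 members, 9 passed the filter on dim probe sets, among 11650 genes tested, and these were C2, C6, Cfb, Cfp, Masp1, Cfi, Serping1, Serpinf2 and Pros1. Cfp, Masp1 and C2 were read here from other probe sets than in liver, Cfp from the one too dim to be kept there. The liver probe sets of Cfp and Masp1 were above the array median on 0 of the 4 aortic arrays. Pros1, which endothelium makes, read 10.10 and 10.13 (log2) in ApoE null cells and 10.17 and 10.65 in double nulls. Serping1 read 6.97 and 6.63 against 7.08 and 7.72, a difference of 0.60. Cfb read 4.66 and 5.04 in ApoE null against 4.06 and 8.40 in double null cells, so that 1 array made the difference of 1.38, and Cfi read 8.02 and 7.84 against 7.95 and 6.53. The difference for Cfi was -0.69. No aortic member passed the adjusted threshold in limma (0 of 9, against 0.00858% of all genes higher and 0.00858% lower), and 0 of 9 had an unadjusted p under 0.05 (2.68% higher and 2.27% lower of all genes). The median difference of the 9 members was 0.26. It was 0.53 without the first double null array and 0.02 without the second, where the spread came from the ApoE null pair alone.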

How the data were processed

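RNA of liver (8 arrays) and of aortic endothelial cells (4 arrays) was measured on Affymetrix mouse arrays. Liver files hold probe set intensity on a linear scale (MAS5), as deposited, which the authors scaled to a common mean of 100 (the mean trimmed by 2% was 100.0 to 100.001 on every array). Aortic values were deposited as log2, with a normalization not given in the sources used here. Transcriptome Analysis Console, with no version, stands in the submitters' processing notes. MAS5 subtracts mismatch signal and is noisy for dim probe sets.

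Groups follow the sample titles. Of 45037 probe sets, 34945 had 1 gene, 932 several and 9160 none, and names were updated through Entrez IDs for 34741. Probe sets above the array median on at least 2 arrays were kept (32005 liver, 22927 aorta), and log2(signal + 16) was fitted with limma 3.58.1 in R 4.3.3, with Benjamini-Hochberg adjustment over all kept probe sets and a threshold of 0.05. Each gene was read from its brightest kept probe set. The residual degrees of freedom were 4 in liver and 2 in aorta, and the number of arrays limits the precision. The fit was checked on simulated arrays in which 200 probe sets were changed.

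Values on every array were given for Hc, F2, Fga, Fgb, Fgg, Serping1 and Serpinc1 and, in each liver comparison, for the 3 members with the lowest p and those with the largest positive and negative difference. The members and the other gene lists were chosen with earlier results of these data known. Alternatives changed the offset (1 or 64), the filter, the normalization, the probe set rule, limma's options, the arrays in the fit and the replicate block. Same-numbered liver arrays did not deviate together (correlations of -0.002 to 0.03), so that numbers did not pair them.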

Additional observations from a re-analysis of the deposited data

How the results depend on the processing

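No member passed an adjusted p of 0.05 in liver under any alternative except Cfp. Cfp was the 1 member called with an offset of 64 (ApoE-lacking against ApoE-intact) and with limma's trend and robust options (ApoE null against WT, double null against WT, ApoE-lacking against ApoE-intact). The number of genes called moved more. With an offset of 1 it was 0 for Dscr-1 null, 0 for ApoE null and 1 for double null against WT. With an offset of 64 it was 5, 13 and 23 for these comparisons, 29 for ApoE-lacking, 3 for Dscr-1-lacking and 2 for the interaction. With trend and robust options it was 19, 40 and 77, 2 for double null against ApoE null, 70 for ApoE-lacking, 14 for Dscr-1-lacking and 5 for the interaction. With the mean of a gene's probe sets it was 0, 1 and 1 against WT, and with only the genotypes compared 0 for Dscr-1 null and 0 for ApoE null. The cause was not tested.

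Leaving out 1 array at a time gave 0 to 1 genes called for Dscr-1 null, 0 to 2 for ApoE null and 0 to 2 for double null against WT, and 1 to 2 for ApoE-lacking livers. The member median ranged from -0.27 (without the second ApoE null array) to 0.17 (without the first) for ApoE null against WT, from -0.18 to 0.29 for double null against ApoE null and from -0.14 to 0.27 for the interaction, whose signs therefore changed with single ApoE null arrays. Quantile normalization, with all arrays kept, also gave the other sign to 6 of the 7 liver medians: 0.02 for ApoE null against WT, -0.01 for double null against ApoE null, -0.03 for the interaction, 0.04 for ApoE-lacking livers, 0.01 for double null and -0.006 for Dscr-1 null against WT. The number of members with an interval within 2-fold, an alternative chosen after seeing the data, ranged from 24 to 32 for ApoE-lacking and from 24 to 31 for Dscr-1-lacking livers. With the replicate number as a block, the liver median for ApoE null against WT was -0.06 and its calls numbered 2, as without the block, and no other liver call changed. In aorta the deviations of same-numbered arrays correlated at 0.297 over 1 pair of groups, which does not show that the numbers pair the arrays, and the block left 0 genes called. There leaving out 1 array gave 0 to 1966 genes, 0 to 6 members (the most without the first double null array) and medians of 0.0201 to 0.53, each from a fit with 1 lone array in a group that is assumed to vary like the other group. Of 1853 values of named members under alternatives, 133 had the other sign, none of them with a main difference above 0.51. The small number of arrays limits what can be seen.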
